A study of Mus musculus with 6 samples.

Results

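Autosomal CpG sites whose DNA methylation level differed widely among 6 cultures of mouse spermatogonia were examined. GS cells are spermatogonia in culture, of which a part are stem cells, grown on mouse embryonic fibroblast feeders with GDNF and FGF2. The cells of both groups came from the transgenic line C57BL6/Tg14(act-EGFP-OsbY01) bred into the DBA/2 background. Space GS cells had been cryopreserved for 6 months in the International Space Station and Ground GS cells for 6 months on Earth, with 3 biological replicates of each (called Space 1 to 3 and Ground 1 to 3), and DNA was taken from cells cultured after thawing. Levels were measured by reduced representation bisulfite sequencing (RRBS), which reads CpG-rich fragments after unmethylated cytosines have been converted, so that a site's level is the percent of its reads that are methylated.

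The sites were selected on the measured levels themselves. A site was eligible if it lay on an autosome and had 20 to 1000 reads in each of the 6 samples, and it was a member if the highest of the 6 levels exceeded the lowest by 40 percentage points or more. This difference is called the range. Of 2268080 sites in the table, 374744 were eligible and 380 of these (0.101%) were members. The wide range is therefore a property of the choice and not a result. The group names were not used in it.

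In the mammalian genome, most CpG sites are methylated, whereas CpG-dense promoters (CpG islands) are mostly unmethylated. Male germline cells carry methylation that was written before birth and is copied at each division by the maintenance machinery. A level between the extremes at a single site means that methylated and unmethylated DNA molecules are both present in the culture, on different alleles or in different cells. Such sites are known mainly from outside CpG islands, for example at enhancers.

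Few members could be shown with their sequence, since only the first bases of a transcript could be tied to the table. The RNA sequences of GENCODE release M21 were read from the 5′ end, and a stretch was accepted if every CpG site of the table from the transcription start site (TSS) to the end of the stretch, and at least 3 of them, fell on a CG. These 6 stretches are those that could be matched in this way, and members closer to a TSS are among those that could not. Each is in the direction of the transcript, and the capitals mark the CpG sites that were members.
Gm13393, transcript bases 1 to 60: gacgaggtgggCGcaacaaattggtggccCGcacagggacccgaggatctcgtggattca
Foxi1, transcript bases 75 to 104: cttcgacctcccagCGccttcaccacctcg
1190028D05Rik, transcript bases 108 to 167: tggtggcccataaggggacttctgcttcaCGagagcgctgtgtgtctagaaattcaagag
2610037D02Rik, transcript bases 352 to 411: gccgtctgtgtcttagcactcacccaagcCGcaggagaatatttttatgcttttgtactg
Krt79, transcript bases 471 to 560: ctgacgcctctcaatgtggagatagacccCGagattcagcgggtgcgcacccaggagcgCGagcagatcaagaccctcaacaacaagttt
Magel2, transcript bases 1084 to 1143: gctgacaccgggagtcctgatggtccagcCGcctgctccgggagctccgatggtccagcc

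The members of *Foxi1*, *Krt79*, and *Magel2* lay in coding sequence, and those of the other 3 lay in long non-coding RNAs. The number of CpG sites that fell on a CG was 34 of 34 for *Magel2* and 18 of 18 for *Krt79*. It was 5 of 5 for *Gm13393*, 4 of 4 for both *Foxi1* and *2610037D02Rik*, and 3 of 3 for *1190028D05Rik*. All 6 stretches also hold CG pairs that were not members.

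The ranges of the 380 members ran from 40 to 63.3 percentage points, with a median of 43.4. Most lay near the limit, with 230 members under 45, 100 from 45 to under 50, 44 from 50 to under 60, and 6 at 60 or more. Among all eligible sites the median range was 5 percentage points, and 632 further sites had a range of 35 to under 40. Exactly at the limit of 40 were 12 members, among them 2 sites of *Tbc1d1* and 1 of *Trrap*. Just outside were sites nearest to *Scn3b*, *Padi6*, and *Mif*, each with a range of 39.9.

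Nearly all members were sites of intermediate methylation. The mean level over the 6 samples ran from 12.9% to 85.9%, with a median of 47.9%, and it was between 20% and 80% at 365 of the 380 members. Only sites away from both extremes can have a wide range, so members were compared mainly with the 11253 eligible sites whose mean level was 20% to 80%, called intermediate sites here. Of these, 3.24% were members. A sample was under 10% at 51 members and over 90% at 37, and at 17 members 1 sample was under 10% while another was over 50%.

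Depth went with membership, and the members were not deep sites among the eligible ones. The lowest coverage among the 6 samples had a median of 22 reads at members, 27 at intermediate sites, and 31 at all eligible sites. It was 20 to 24 reads at 261 members (68.7%), 30 or more at 30 members, and never above 43. Of the intermediate sites with a lowest coverage of 20 to 24 reads, 6.33% were members (exact 95% binomial interval 5.59 to 7.13). The share was 3.11% at 25 to 29 reads (2.49 to 3.83), 0.823% at 30 to 39 reads (0.533 to 1.21), and 0.293% at 40 to 59 reads (0.0799 to 0.749). No member was found among 152 intermediate sites with 60 or more reads (exact 95% interval 0 to 2.40).

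**Figure D1:**
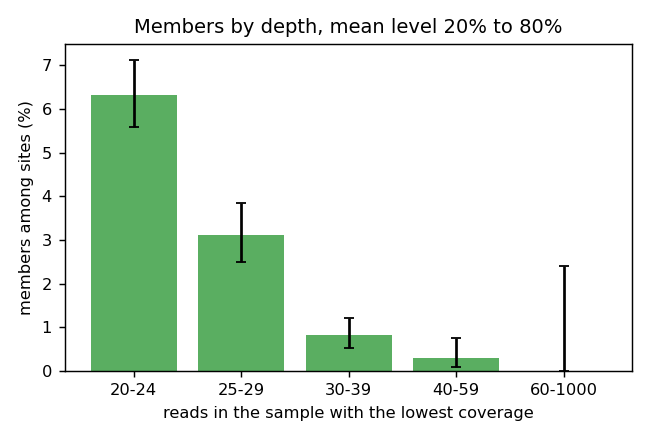
Percent of intermediate sites (mean level 20% to 80%) that were members, by the number of reads in the sample with the lowest coverage. Bars give the percent and error bars the exact 95% binomial interval; the share falls from 6.33% at 20 to 24 reads to 0 of 152 sites at 60 or more.

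At 20 reads, 1 read changes a level by 5 percentage points, and the exact 95% intervals of the highest and the lowest sample did not overlap at 333 members (87.6%). These intervals cover counting error only, since copies of 1 molecule cannot be recognized here, and they do not allow for the highest and lowest sample having been picked. The spread over the 6 samples relative to counting error (chi-square per degree of freedom) had a median of 3.25 at members and 1.13 at intermediate sites. How much of the range of a member is counting error was not tested.

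Members occurred mostly alone. Joined when no more than 100 bp apart, the 380 sites formed 315 clusters, of which 264 held 1 site, 40 held 2, 9 held 3, 1 held 4, and 1 held 5. The closest TSS belonged to 307 genes, and 8 genes had members in more than 1 cluster. The autosomes held from 9 members (chromosome 19) to 34 (chromosomes 4 and 5). In 35 of the 51 clusters with more than 1 member, every site had the same coverage as the others in each sample, so the sites of a cluster cannot be taken as separate measurements. Cluster levels below were computed from the summed reads of the members.

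Of the 11 clusters with 3 or more members, the 10 with the most members, ordered by their mean range where tied, are described first, with positions in the build mm39. The *Rere* cluster (chr4:150399911-150399947, 5 sites read 35 to 46 times) lay 33.8 kb downstream of the TSS and within the gene, which encodes an atrophin-family transcriptional coregulator. Its level was 64.6%, 33.3%, and 34.3% in Space 1 to 3 and 23.9%, 20.4%, and 41.5% in Ground 1 to 3. Space 1 stood above the other 5 samples, and the other 2 Space replicates lay among the Ground replicates. At 2 further eligible sites within 100 bp, Space 1 was also the highest, with 58.6%, and the other samples ranged from 22.0% to 41.5%.

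In the *Tbc1d1* cluster (chr5:64414210-64414266, 4 sites, 20 to 37 reads), it was a Ground replicate that stood apart. *Tbc1d1* encodes a GTPase-activating protein of Rab proteins that acts in glucose transporter traffic. Ground 1 had 53.8%, and Ground 2, Ground 3, and the Space replicates had 10%, 30.2%, and 23.1% to 35.3%. At the 7 eligible neighbors that were not members, Ground 1 (42.4%) and Ground 2 (38.9%) were both high, so Ground 2 did not keep its low level there.

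Ground 1 was also far above all others in the *Ttll1* cluster (chr15:83396906-83396917, 3 sites, 22 to 33 reads), 1.8 kb upstream of the gene of a tubulin polyglutamylase subunit. It had 89.4%, whereas Ground 2 and Ground 3 had 42.4% and 34.4% and Space 1 to 3 had 31.9%, 48.9%, and 43.3%. The Space mean was 41.4% ± 8.64 and the Ground mean 55.4% ± 29.7 (SD, n = 3), and the levels of the groups overlapped.

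At *Agbl4*, whose product removes glutamates from tubulin, Ground 1 was instead the lowest sample. The cluster lay deep within the gene (chr4:110733789-110733811, 3 sites, 22 to 28 reads). Ground 1 to 3 had 40.3%, 71.6%, and 64.0%, and Space 1 to 3 had 90.5%, 60.6%, and 72.7%. Space 1 and Ground 1 formed the ends, and the remaining 4 samples lay between 60.6% and 72.7%.

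The 2 non-coding genes *Gm26815* and *Gm49189* had clusters in which both ends of the range were Ground replicates. The levels at *Gm26815* (chr8:122037764-122037797, 3 sites, 21 to 37 reads) were 72.3%, 46.8%, and 24% in Ground 1 to 3 and 32.2%, 42.4%, and 39.4% in Space 1 to 3. At *Gm49189* (chr14:47548329-47548413, 3 sites, 25 to 40 reads), Ground 1 to 3 had 73.7%, 30.9%, and 46.7% and Space 1 to 3 had 46.4%, 58.0%, and 71.7%. The Space replicates lay inside the Ground range at both.

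In the *Noc4l* cluster (chr5:110769005-110769034, 3 sites, 23 to 41 reads), beyond the end of the gene of a ribosome biogenesis factor, Ground 2 had 4.3% and Space 2 had 48.0%. The other 4 samples lay between 22.8% and 31.2%, and each Space replicate was above each Ground replicate, by 1.9 percentage points at the closest. This held for the summed reads. At the single member at position 110769034, Space 1 (21.9%) was below Ground 1 (23.1%). At the 1 eligible neighbor, Space 3 (18.2%) was below Ground 1 (23.1%). *Rhou* had a cluster 31.8 kb upstream (chr8:124348861-124348897, 3 sites, 27 to 46 reads) with 8.6% in Ground 1 and 50% in Space 2, and 18.3% to 31.9% in the rest. There, 27 further eligible sites lay within 100 bp, and these had 13.3% in Ground 1 and 44.1% in Space 2, again the lowest and the highest of the 6 samples.

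Upstream of the non-coding gene *E330012B07Rik* (chr6:147080291-147080372, 3 sites, 20 to 28 reads), Space 1 and Ground 1 had 75.6% and 66.7%, and the other 4 samples had 35.7% to 55.6%. The *Mup17* cluster (chr4:61490022-61490117, 3 sites, 25 to 36 reads) lay near a gene of the major urinary protein family, whose members are close copies of each other. Its levels were 74.7%, 57.7%, and 44.3% in Space 1 to 3 and 33.3%, 55.9%, and 74.1% in Ground 1 to 3, so both groups held a sample near the upper end. Of these 10 clusters, *Noc4l* was the only one in which the levels of the groups did not overlap. The remaining cluster of 3, near the non-coding gene *9330198N18Rik* (chr2:30516076-30516116, 28 to 38 reads), had the lowest mean range. Ground 1 was its highest sample with 67.6%, and Space 1 was its lowest with 26.7%.

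**Figure D2:**
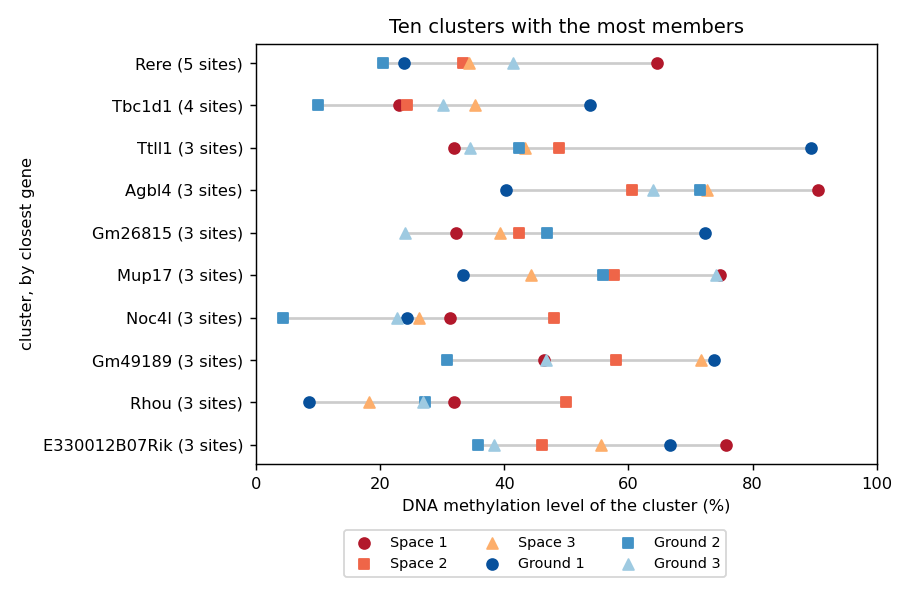
DNA methylation level (percent of methylated reads, summed over the members of a cluster) of the 10 clusters with the most members, with 1 point per sample and a line from the lowest to the highest. Space replicates are red to orange and Ground replicates blue; the 2 colors are mixed in every row but Noc4l, and single samples stand apart, as at Ttll1, where Ground 1 (89.4%) is alone at the right and Ground 3 (34.4%) is near the left end.

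The 5 widest ranges were found at sites nearest to *Gm2582* (63.3 percentage points), *Vmn2r95* (62.3), *Gm29918* (60.5), *Ttll1*, and *Stk11*. The *Gm2582* site (chr15:56798889, 27 to 42 reads) had 29.3%, 61.9%, and 92.6% in Space 1 to 3 and 48.1%, 60.7%, and 52.8% in Ground 1 to 3, so the whole range lay within Space GS cells. At *Vmn2r95* (chr17:18648020, 20 to 30 reads), a vomeronasal receptor gene, the levels were 85.0%, 50%, and 57.7% in Space 1 to 3 and 76.7%, 59.3%, and 22.7% in Ground 1 to 3. The cluster within *Stk11*, the gene of the kinase LKB1 (chr10:79953161-79953173, 2 sites, 20 to 39 reads), ran from 19.2% in Ground 1 to 72.6% in Ground 2, with Space 1 to 3 at 43.6%, 32.5%, and 56.7%. At *Gm29918* (chr7:25259384, 20 to 33 reads), Space 1 had 90.5% and Ground 3 had 30%.

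Promoters held few members. Within 1 kb of the closest TSS lay 27 members (7.11%), 64 (16.8%) were 1 to 5 kb away, 201 (52.9%) were 5 to 50 kb away, and 88 (23.2%) were farther than 50 kb. The share within 1 kb was 64.7% of all eligible sites but 6.86% of intermediate sites. Intermediate sites also had 15.4%, 50.1%, and 27.7% in the other distance classes, and 2.73% to 3.63% of the intermediate sites of each class were members. The median distance was 20169 bp at members, 18946 bp at intermediate sites, and 453 bp at eligible sites. The distances of members were thus those of sites with intermediate levels in general, and no test was made of the small differences.

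By the length of the closest gene in GENCODE release M21, 105 members (27.6%) lay within that gene, 87 beyond its end, and 177 upstream of its TSS, and 11 closest genes had no entry. The closest gene was protein-coding for 244 members, a lincRNA for 75, and an antisense RNA for 34. Whether a member lies in an exon or an intron was not analysed here, except for the 6 transcripts above. Few other CpG sites of the table lay within 100 bp of a member (median 3), and the CpG density of the sequence itself was not measured. This median was also 3 at intermediate sites and was 13 at all eligible sites.

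Of the 27 members within 1 kb of a TSS, 2 each were nearest to *Gm13393*, *Cirop*, and *Krt79*. The 2 *Gm13393* members, 12 and 30 bp from the TSS (chr2:28978689-28978707, 25 to 30 reads), were the closest to any TSS. Their cluster had 38.9%, 58.0%, and 45% in Space 1 to 3 and 65.5%, 44.2%, and 23.2% in Ground 1 to 3, with both ends in Ground GS cells. *Krt79*, a type II keratin gene (chr15:101848229-101848259, 21 to 29 reads), had 54.8%, 32.6%, and 43.1% in Space 1 to 3 and 47.6%, 22.0%, and 65.4% in Ground 1 to 3, in the coding stretch shown above. At *Cirop*, a metallopeptidase gene (chr14:54935807-54935810, 22 to 38 reads), Ground 2 had 10.3% and the other 5 samples had 36% to 52.9%.

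The *Rap1gap* member (chr4:137392269, 21 to 29 reads), 233 bp downstream of the TSS of a GTPase-activating protein of Rap1, was methylated mainly in 1 sample. Space 2 had 45.5%, and the others had 10.3%, 12.5%, 4.5%, 4.8%, and 0% (Space 1, Space 3, and Ground 1 to 3). Its 12 eligible neighbors within 100 bp were low in all samples, with 8.6% in Space 2 and 3.4% to 7.7% in the rest, so the high level of Space 2 was not shared by its surroundings. The levels of the groups did not overlap at this member.

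Other members near a TSS were likewise set apart by different samples. *Igtp*, an interferon-inducible GTPase gene (chr11:58089425, 20 to 32 reads), had 53.1%, 19.05%, and 56.5% in Space 1 to 3 and 35%, 5.0%, and 29.6% in Ground 1 to 3. At *Tnfrsf13b*, which encodes the B cell receptor TACI (chr11:61017762, 24 to 57 reads), Ground 1 had 50%, the other Ground replicates had 88.9% and 96.8%, and the Space replicates had 70.2% to 75.7%. Space 3 was alone at the low end at *Gfer*, a mitochondrial sulfhydryl oxidase gene (chr17:24914256, 23 to 34 reads), with 11.8% against 26.7% to 60.9% in the others. Ground 2 was the lowest at *Gm45680* (chr8:11997934, 28.0% against 56.4% to 82.9%) and at *Prr30* (chr14:101438262, 25% against 50% to 71.4%), where every Space replicate (58.97% or more) was above every Ground replicate (56.7% or less). *Gm36172* (chr10:24804374) ran from 44.4% in Ground 3 to 92.6% in Space 1.

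The *Foxi1* member (88 bp from the TSS, 29 or more reads) lay in the coding sequence of a forkhead transcription factor. Ground 1 had 54.8%, Space 1 to 3 had 37.8%, 26.7%, and 31.3%, and Ground 2 and Ground 3 had 17.2% and 13.8%. Again the Space replicates lay between the Ground replicates. The *1190028D05Rik* member, in the stretch shown above, had 44.1% in Space 3 and 70.0% to 86.96% in the other 5 samples. At *2610037D02Rik*, Space 2 had 60% and Space 3 had 17.2%, and the Ground replicates lay between them with 22.2% to 33.3%.

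Few intermediate sites were near the listed genes of imprinting, germ cells, and DNA methylation, and 2 members were nearest to them. Of 63 imprinted genes, 53 had eligible sites (968 sites, 24 of them intermediate), and 1 member was nearest to 1 of them, *Magel2*. This is a gene expressed from the paternal allele in the Prader-Willi region. Its member (1113 bp from the TSS, 22 to 40 reads), in the coding stretch shown above, had 10%, 14.7%, and 9.4% in Space 1 to 3 and 45.5%, 0%, and 11.5% in Ground 1 to 3. Ground 1 alone was high, and the Space replicates lay between Ground 2 and Ground 1.

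Among 17 genes of enzymes and cofactors that write or erase DNA methylation, 1 had a member, *Tet1*, which encodes an enzyme that oxidizes 5-methylcytosine. The site was 29.2 kb away from the TSS (24 to 31 reads) and had 22.2%, 16%, and 45.8% in Space 1 to 3 and 12.9%, 12.5%, and 3.7% in Ground 1 to 3. The levels of the groups did not overlap, and Space 3 stood above the other 5 samples. No member was nearest to the listed genes of self-renewal (0 of 1251 eligible sites, 19 intermediate), spermatogonial differentiation (0 of 208, 3 intermediate), the piRNA pathway (0 of 189, 5 intermediate), or DNA damage response and repair (0 of 538, 10 intermediate). Few intermediate sites were near these genes, so the lack of members there says little about them.

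By gene name, 100 members (26.3%) were nearest to predicted genes (Gm), and 39 (10.3%) to Riken clone genes. These shares were 29.2% and 9.60% among intermediate sites and 13.1% and 4.97% among eligible sites. Vomeronasal receptor genes, which encode pheromone receptors and occur in large families of close copies, were nearest to 7 members (1.84%, against 0.880% of intermediate sites). Olfactory receptor genes were nearest to 2, protocadherin genes to 2, zinc finger genes (Zfp) to 3, and solute carrier genes to 4 members. No member was nearest to a Hox gene, a histone gene, or a microRNA gene. These classes were nearest to only 0.107%, 0%, and 0.0178% of intermediate sites, so the lack of members there says little. *Rplp0*, a ribosomal protein gene, was nearest to 2 members.

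The samples were checked with promoters that are known to be unmethylated in spermatogonia. Within 1 kb of the TSS, the 12 measured germline genes of a list of 14 (*Dazl*, *Ddx4*, and others that are methylated in somatic cells) were under 10% in every sample, with means of 1.78% to 3.35%. The 7 measured of 10 promoters of genes with maternal imprints, which are unmethylated in male germ cells, were also under 10% in every sample, with means of 1.27% to 2.87%. The highest mean of both lists was that of Ground 1. Near *H19*, whose imprint is methylated in male germ cells, 2 sites within 1 kb of the TSS had 0% to 7.95% in the 6 samples. Whether these 2 sites belong to the imprinted region was not examined, so they do not give the state of the imprint. Feeder cells would carry methylation at both lists of promoters, and the part of such cells in the members' levels was not tested. Summed over all CpG sites, the coverage was 28535973 in Ground 1, the lowest, and 33743845 in Space 1, the highest. A read counts once at each site that it covers, so these are not numbers of reads. The median coverage of members was 27.5 to 31.5 reads.

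Space 1 and Ground 1 stood at the upper end most often and Ground 2 and Ground 3 at the lower end. Space 1 had the highest level at 107 members (28.2%) and Ground 1 at 90 (23.7%), and the other 4 samples at 42 to 53 each. The lowest level was found in Ground 2 at 118 members (31.1%) and in Ground 3 at 94 (24.7%), and in the other 4 samples at 32 to 49 each. A tie, counted for the first of the tied samples, occurred at 1 member for the highest and at 3 for the lowest level. The mean level over the 380 members was 53.6%, 48.9%, and 47.7% in Space 1 to 3 and 51.7%, 43.1%, and 44.1% in Ground 1 to 3.

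The same samples were at the ends at the intermediate sites that were not members, to a smaller extent. There, Space 1 and Ground 1 each had the highest level at 20.4% of the sites, and Ground 2 and Ground 3 had the lowest at 20.004% and 19.9%. The mean levels were 50.5%, 49.2%, and 49.1% in Space 1 to 3 and 50.2%, 48.2%, and 48.1% in Ground 1 to 3. Samples that were high or low at intermediate sites in general were thus also the ones that were high or low at the members. The median coverage of members was 31.5 reads in Space 1, 28 in Ground 1 and Ground 2, and 27.5 in Ground 3.

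**Figure D3:**
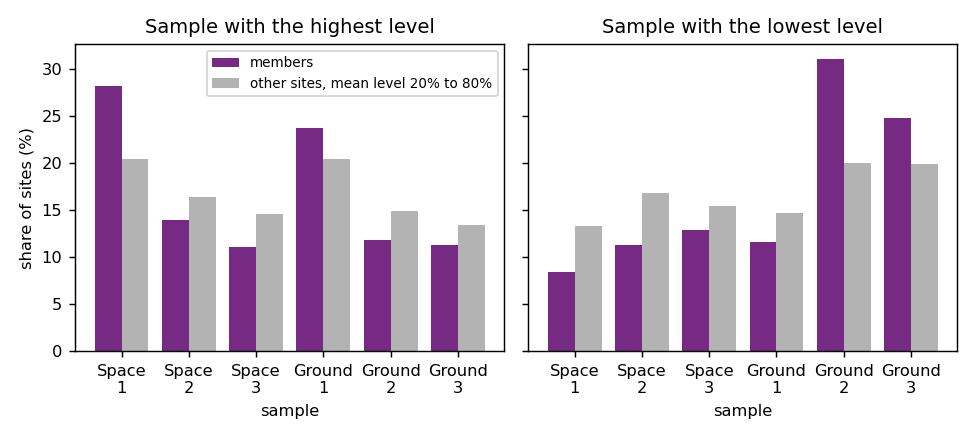
Share of sites (%) at which each of the 6 samples had the highest level (left) or the lowest level (right), for the 380 members and for the other intermediate sites. Space 1 (28.2%) and Ground 1 (23.7%) lead on the left, and Ground 2 (31.1%) and Ground 3 (24.7%) lead on the right, with smaller gaps among the other sites.

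At most members, 1 sample was separated from the other 5. The choice of members used the same 6 levels and favors sites with a single outlying sample, so this is a description. When the 6 levels were put in order, the largest gap between neighboring levels had 1 sample on 1 side and 5 on the other at 295 members (77.6%). The high side held the single sample at 151 members and the low side at 144. The largest gap had 3 samples on either side at 23 members, and at 1 of these the sides were Space and Ground. The sample farthest from the median of the other 5 was Ground 2 at 89 members, Space 1 and Ground 1 at 73 each, Ground 3 at 64, Space 2 at 45, and Space 3 at 36. Ground 2 was farthest mainly at the low end (65 of 89), whereas Space 1 (58 of 73) and Ground 1 (51 of 73) were farthest mainly at the high end.

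The clusters at which each sample lay farthest from the rest, by cluster level, show how large these departures were. For Ground 3 it was the site nearest to *Ssr1*, which encodes a subunit of the translocon-associated protein complex (chr13:38114979, 21 to 43 reads), with 8.0% against 42.9% to 67.4% in the other 5 samples. Ground 3 was also alone 21.3 kb from the TSS of *Gm47767* (chr12:80277331, 20 to 25 reads), with 12% against 33.3% to 65.2%. For Ground 1, besides *Ttll1*, it was a site within *Notch2*, the gene of a Notch receptor (chr3:97931988, 20 to 36 reads). Ground 1 had 60% there, and the other samples had 0% to 22.2%.

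Ground 2 departed most at a site 472.8 kb upstream of *Gm45554* (chr8:53416302, 20 to 37 reads). It had 47.6% there, and the other 5 samples had 90% to 97.2%. It was also farthest at *Gm35818*, where the groups did not overlap and Ground 3 was also low. Space 1 was alone 9.3 kb upstream of *Ppfibp1*, the gene of a liprin (chr6:146780602-146780676, 22 to 30 reads), with 72.7% against 19.2% to 42.0%. It was also alone 49.4 kb from the TSS of *1700116B05Rik* (chr16:50653179, 26 to 40 reads), with 51.6% against 7.5% to 22.6%. Space 2 was highest at a site 1458 kb upstream of *Pcdh7*, a protocadherin gene (chr5:56417106, 20 to 48 reads), with 78.3% against 25% to 44.0%. It was lowest at a site 37.9 kb upstream of *Vmn2r2* (chr3:64087235, 20 to 31 reads), with 13.6% against 51.6% to 69.6%. Space 3 was farthest at *Gm2582* and *1190028D05Rik*, given above.

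Whether the spread follows the storage in space was examined with the group names, which the choice of members had not used. The levels of all 3 Space replicates lay above or below those of all 3 Ground replicates at 31 members (8.16%), whereas this was so at 8.49% of the intermediate sites. Space GS cells were higher at 23 of the 31 members and lower at 8, and among intermediate sites these shares were 5.04% and 3.45% of all. The share of members with separated groups was thus close to that of intermediate sites. The median range was 24.96 percentage points among Space replicates and 32.9 among Ground replicates, and these medians were 13.5 and 14.5 at intermediate sites. The median absolute difference of the group means was 11.3 at members. A range and a difference of means are different measures, so their sizes were not compared.

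Both the highest and the lowest sample were Ground replicates at 96 members and Space replicates at 42. The highest was a Space and the lowest a Ground replicate at 160, and the reverse held at 82. Averaged over members, the absolute difference between 2 samples was 16.1 to 23.3 percentage points for the 6 pairs within a group and 17.0 to 22.8 for the 9 pairs of a Space and a Ground sample. The pair of Ground 1 and Ground 2 differed most (23.3), followed by Space 1 and Ground 2 (22.8).

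Averaged over the members, Space GS cells had 50.1% ± 3.14 and Ground GS cells 46.3% ± 4.68 (SD, n = 3), a difference smaller than the SD of Ground GS cells. The median of the Space minus Ground difference over the members was 6.02 percentage points, with 228 members higher and 152 lower in Space GS cells. This median was 2.28 without Space 1, 3.51 without Ground 2, 3.35 without Ground 3, and 8.70 without Ground 1. Without Space 2 and without Space 3, it was 5.93 and 6.13. With all samples, it was 2.34 over the 5480 members found with a coverage minimum of 10 reads. Over the 30 members found with a minimum of 30 reads, it was 8.85. Its size thus depended on the samples and on the limit. At the intermediate sites that were not members, the means were 49.6% ± 0.798 and 48.8% ± 1.18 (SD, n = 3). The group means differed by more than 20 percentage points at 40 members, 31 of them higher in Space GS cells.

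**Figure D4:**
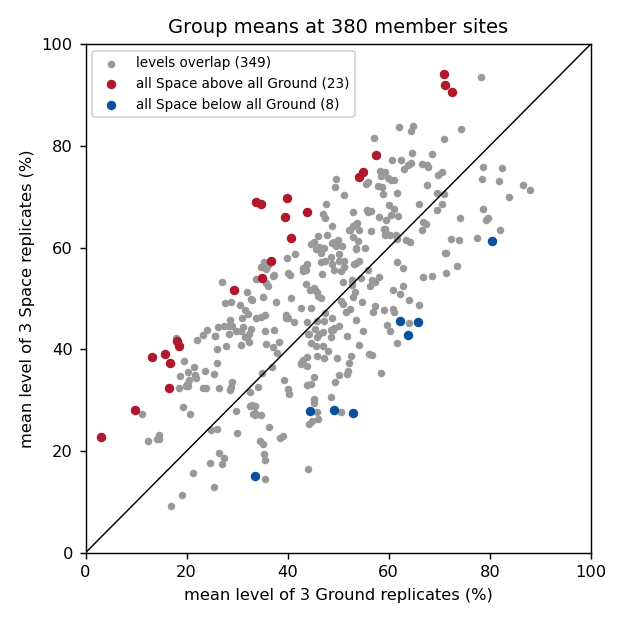
Mean level of the 3 Space replicates against the mean level of the 3 Ground replicates at each of the 380 members, both in percent; the line marks equal means. Members whose Space levels all lay above the Ground levels (23) are red, those whose Space levels all lay below (8) are blue, and the other 349 are gray and lie on both sides of the line.

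In the quasi-binomial test of 92042 sites (10 reads or more per sample, mean level 5% to 95%), 0 of the 380 members had an adjusted p under 0.05 (background 0% of all sites). The smallest adjusted p of a member was 0.479 (moderated with limma, Benjamini-Hochberg adjustment). On simulated data, the test called 0.5% of 200 sites shifted by 20 percentage points, and 63.5% of those shifted by 40. The simulated sites were all given the mean dispersion of the sites tested. Members had a wider spread (median chi-square per degree of freedom 3.25, against 1.13 at intermediate sites), so these shares need not hold for them. The lack of calls therefore says little about differences of 20 percentage points or less, and larger differences at members may also have been missed. An unadjusted p under 0.05 was found at 90 members (23.7%) and at 5.61% of all sites tested. Since the members were chosen for a wide spread of the same 6 levels, their count is a description, and nothing is read from its excess. With the quasi-likelihood test of edgeR, 0 members passed with adjustment and 61 without it, and with limma on log2 ratios the counts were 0 and 51. Without Space 1, 59 members had an unadjusted p under 0.05.

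The clusters with separated groups and the largest differences are given as examples, and none passed the test. Space GS cells were higher by 35.04 percentage points at a single site 5.5 kb upstream of the non-coding gene *Gm35818* (chr12:54159169, 20 to 50 reads). Space 1 to 3 had 68.0%, 64.9%, and 73.7%, and Ground 1 to 3 had 54.2%, 20%, and 27.3%. Ground 1 was closer to the Space replicates than to the other Ground replicates. At *Mucl1*, a mucin-like gene (chr15:103793888, 20 to 25 reads), the levels were 56.0%, 71.4%, and 78.3% in Space 1 to 3 and 26.1%, 42.9%, and 35% in Ground 1 to 3.

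A site 162.8 kb from the TSS of *4930520P13Rik* (chr13:70543735, 22 to 56 reads) had means of 69.7% ± 13.9 (Space) and 39.8% ± 10.9 (Ground, SD, n = 3). At its 2 eligible neighbors, Space 1 to 3 had 82.7%, 71.1%, and 83.2%, and Ground 1 to 3 had 71.3%, 70.4%, and 73.8%. The levels of the groups overlapped there. Within *Atp4a*, which encodes the catalytic subunit of the gastric proton pump (chr7:30415216, 21 to 36 reads), Space 1 to 3 had 50%, 33.3%, and 32.0% and Ground 1 to 3 had 13.9%, 7.4%, and 18.2%. At its 6 eligible neighbors, which were not members, Space 1 to 3 had 29.2%, 27.0%, and 25.3% and Ground 1 to 3 had 14.9%, 12.3%, and 15.2%, so the groups were separated there too, by less. The *Gm13417* cluster (chr2:24497566-24497602, 2 sites, 29 to 39 reads) had 63.9% ± 8.37 and 40.1% ± 9.96 (SD, n = 3).

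Lower levels in Space GS cells were found upstream of *Znrf4*, a ubiquitin ligase gene (chr17:56822641, 25 to 38 reads). Space 1 to 3 had 31.4%, 33.3%, and 17.9%, and Ground 1 to 3 had 52.0%, 46.2%, and 60.5%. The differences were -21.0 percentage points at *4930440C22Rik*, -20.3 at *Trpd52l3*, -19.9 at *Gm49504*, and -19.1 at *Lag3*. *Lag3* encodes an inhibitory receptor of T cells, and the site named by *4930440C22Rik* lay 146.6 kb from the TSS of that gene. The levels at *Lag3* (chr6:124890939, 20 to 34 reads) were 71.0%, 46.4%, and 66.7% in Space 1 to 3 and 75%, 87.1%, and 79.4% in Ground 1 to 3, so Space 1 was only 4 percentage points under the lowest Ground replicate. The 3 other eligible sites within 100 bp of the *Gm49504* cluster were at 93.8% to 97.2% in all samples. At the 2 eligible neighbors of the *4930440C22Rik* site, the groups overlapped (30% to 51.9% in Space and 33.3% to 62.5% in Ground GS cells). At the 1 neighbor of the *Trpd52l3* site they did not (32.4% to 54.5% in Space and 55.6% to 69.7% in Ground GS cells).

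The departure of a sample was shared by CpG sites close by and less so by sites farther away. Each member was paired with the intermediate eligible sites around it that were not members, and the sample farthest from the others at the member was followed. At 205 neighbors within 20 bp, that sample deviated in the same direction at 92.2% and was also the extreme sample at 75.1%. The share with the same direction was 88.8% at 21 to 50 bp (197 neighbors), 82.8% at 51 to 100 bp (157), 71.8% at over 100 to 200 bp (124), 54.7% at 201 to 500 bp (53), and 62.5% at 501 to 1000 bp (24). The deviation had a median of 17.6 percentage points within 20 bp 0.554 at 201 to 500 bp, and 2.74 at 501 to 1000 bp, where few neighbors were left.

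These neighbors are often read on the same DNA fragments, since 155 of the 205 pairs within 20 bp had the same coverage in all 6 samples. At over 100 to 200 bp, only 5 of 124 pairs did, and there the median deviation was 11.8 percentage points. The correlation of the 6 levels between a member and its neighbor had a median of 0.85 within 20 bp, 0.39 at over 100 to 200 bp, 0.23 at 201 to 500 bp, and -0.13 at 501 to 1000 bp. Between 2 intermediate sites that were not members, it was 0.74, 0.13, -0.02, and 0.04 at these distances. These correlations are over the 6 samples and are given as a description, since both sites of a pair share libraries and, at short distances, reads.

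**Figure D5:**
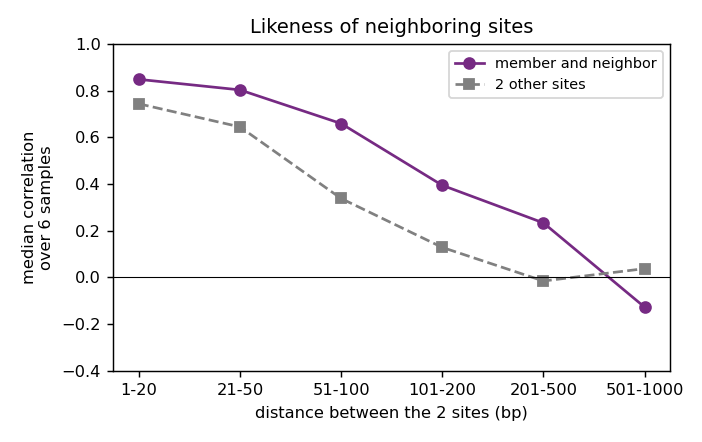
Median correlation over the 6 samples between a member and an intermediate site that was not a member (purple circles), and between 2 intermediate sites that were not members (gray squares), by the distance between both sites in bp. Both fall from 0.85 and 0.74 within 20 bp to 0.23 and -0.02 at 201 to 500 bp, and are -0.13 and 0.04 at 501 to 1000 bp.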

How the data were processed

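RRBS libraries of 6 samples (Zymo-Seq RRBS kit) had been sequenced by the authors. Per the labels, their processing used Trim Galore, Bismark 0.24.2, methylKit, and the build mm39. The read filters and the treatment of duplicates are not given in the sources used here, and duplicated reads would make levels look more precise than they are. The authors deposited 1 table with the coverage of each CpG site as a read count and its methylation as a percent, with both strands in 1 row and the closest TSS. Samples were grouped by their titles, and the authors' names for the columns were matched to the sample descriptions.

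The number of methylated reads at a site was computed from its coverage and percent, and lay within 0.000266 of a whole read. A quasi-binomial model was fitted to the methylated reads of each site (R 4.3.3). Its Pearson dispersion was moderated across sites by limma 3.58.1 (squeezeVar), p-values were adjusted by Benjamini-Hochberg, and an adjusted p under 0.05 was a call. The fit was tested on simulated data, and the shares of shifted sites that it called are given above. The alternatives were edgeR 4.0.16, limma on log2 ratios (2 reads added), other coverage, level, range, and gap limits, and leaving out each replicate. The labels do not say whether same-numbered Space and Ground samples form pairs, and their column names carry consecutive numbers. The deviations of same-numbered samples had correlations of 0.00988 to 0.0438 over sites, and those of other pairs -0.0367 to 0.0146. The numbers were not used as pairs in the main test. The available genome was of another build, so gene types and lengths were taken from GENCODE release M21 by identifier only.

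The members and the gene lists were chosen with earlier results of these data known. The genes named are those of the 10 clusters with the most members, the 5 widest ranges, up to 10 clusters within 1 kb of a TSS, the 5 largest differences of each sign among clusters with separated groups, the 2 clusters farthest from the rest for each sample, 3 members just inside and 3 sites just outside the limit, and listed genes with members. *Foxi1*, *2610037D02Rik* (both for their sequence), *9330198N18Rik*, and *Rplp0* were added after their values were seen. Plots were made in matplotlib 3.10.9 (Python 3.11.15).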

Additional observations from a re-analysis of the deposited data

How the results depend on the processing

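The number of members depended on the limits that define them. It was 5480 with a coverage minimum of 10 reads and 30 with a minimum of 30, and 2349 with a range of 30 or more and 50 with a range of 50 or more. It was 265 to 366 over the other 5 samples when 1 replicate was left out. The share farther than 1 kb from a TSS was 86.7% with the minimum of 30 reads and 96% with the range of 50. The share with separated groups was 3.33% (1 of 30 members) with the minimum of 30 reads, where it was 8.21% of intermediate sites. It was 15% to 23.4% when 1 replicate was left out, since 3 samples against 2 separate more often, and 17.5% to 20.7% of intermediate sites then. Space 3 was the farthest sample at 13.3% of the members with the minimum of 10 reads, compared with 9.47%. The number of members with an unadjusted p under 0.05 was 51 with limma, 44 with a replicate block, and 59 (without Space 1) to 121 (without Ground 1) when 1 replicate was left out. None passed the adjusted threshold in any of these fits. With the replicate block, 0 members were called, and the median difference of 6.02 percentage points was the same by construction. Whether the numbers used for the block pair the samples is not known. At 70 of the alternatives tried, a count moved by less than 1.5 times, or a share or difference stayed within its limits. These limits were its interval or the SD of replicates. At 17 others, the value moved by more. The 70 include the counts of called members, which stayed at 0, and the difference with the block, which was fixed. Counting error at 20 to 30 reads limits every single level given.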

Other observations

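The members were limited to autosomes. With the same limits, 3 sites on the sex chromosomes had a range of 40 or more. A pair of them, 18 bp apart and nearest to *Pdha1*, which encodes a pyruvate dehydrogenase subunit, lay on chromosome X (positions 159029635 and 159029653), about 108 kb from the TSS. The first had 43.8%, 36%, and 13.3% in Space 1 to 3 and 14.3%, 0%, and 18.2% in Ground 1 to 3, at 21 to 32 reads. The second had a range of 40.6 percentage points, again with Space 1 (40.6%) at the upper and Ground 2 (0%) at the lower end. The third site lay on chromosome Y, nearest to *Gm21860* (position 90739015, 20 to 38 reads), with 60.6%, 42.1%, and 81.8% in Space 1 to 3 and 60%, 56.0%, and 25% in Ground 1 to 3.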
